A study of Homo sapiens with 12 samples.

Results

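The genes followed here are 33 genes of glycolysis and the pentose phosphate pathway, chosen by gene symbol from glucose uptake to lactate export. All 33 were among the 17589 genes of the deposited gene table, and all 33 were among the 13657 genes with enough counts to be tested. RNA was sequenced from YT, a human NK-like lymphoid line that lacks CD16a, after lentiviral transduction without further stimulation. CTRL cells carried eGFP alone, hnCD16 cells carried a high-affinity, cleavage-resistant CD16a, FR1 cells carried hnCD16-2B4-DAP10-CD3ζ and FR2 cells carried hnCD16-DAP10-CD3ζ. The receptors were driven by the constitutive hEF1A promoter, and eGFP-positive cells of each kind were sorted and expanded as a population. Each of the 4 groups had 3 libraries. The methods speak of independent experiments for the in vitro data in general, but no source says of the RNA-seq libraries that they came from separate cultures. If they did not, p-values measure only the technical spread between these libraries.

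The libraries held 17714550 to 18729013 counts, and the first principal component, 95% of the variance, set the 6 libraries labelled FR1 and FR2 apart from the 6 labelled CTRL and hnCD16. Lineage markers went against the shared label of an NK line. The 17 NK cell markers summed to 180.4 to 205 TPM (a level scaled by transcript length and by the sum over the library) in the libraries labelled CTRL and hnCD16, and to 7832 to 8524 TPM in those labelled FR1 and FR2, where GZMB was the highest and TYROBP was at 0 counts. Of 10 T cell markers 8 were in the table, and their sum ran the other way, from 1609 to 1828 TPM in CTRL and hnCD16, with CD3D the highest, to 77.8 to 99.6 TPM in FR1 and FR2, where CD3D, CD4, CD8A, CD8B and LCK had 3 counts or fewer in each library. The sums were uneven, and the next markers were named after their values were seen. GZMB alone stood at 5551 TPM in FR1 and 5145 TPM in FR2. The NK cell markers GZMA (48.7 ± 3.03 TPM in CTRL, 9.49 ± 0.53 in FR1), CD7 (49.5 ± 0.881 and 1.15 ± 0.0954) and NCR3 (10.3 ± 0.409 and 1.36 ± 0.307) were lower in FR1 and FR2, and KLRD1 overlapped. Of the T cell markers CD28 ran against the sum, from 1.34 ± 0.271 TPM in CTRL to 32.5 ± 0.781 in FR1 and 42.3 ± 2.66 in FR2 (mean ± SD, n = 3). The 4 B cell markers in the table summed to 15.4 to 24.9 TPM in CTRL and hnCD16, led by CD79A, and to 8.10 to 10.2 TPM in FR1 and FR2, led by PAX5. Myeloid markers stayed at or below 6.53 TPM in sum, erythroid markers at or below 0.60 TPM, and epithelial or producer cell markers at or below 6.34 TPM. In the comparisons of FR1 or FR2 with hnCD16 or CTRL, the receptor and the marker background of the libraries therefore cannot be told apart, and the part of the marker background in each difference below was not tested. FR1 against FR2 called 1.93% of all tested genes. Of 16 NK cell markers tested it called 2 (12.5%), GNLY (log2 fold change 1.62 ± 0.12) and NCR3 (2.58 ± 0.48), both higher in FR1. Of 3 myeloid markers tested it called 1, CSF1R (-1.47 ± 0.20), lower in FR1. It called 0 of 8 T cell, 0 of 3 B cell, 0 of 1 erythroid and 0 of 3 epithelial or producer cell markers. These few markers thus differed within that pair. In bulk RNA, fewer cells of a kind and less RNA per cell cannot be told apart either.

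Glycolysis splits glucose into pyruvate, with a net yield of ATP and NADH, and lymphocytes draw on it when they proliferate or secrete cytokines. Many of its steps can be run by several isozymes, products of separate genes that differ in kinetics and regulation, and cells can differ in which isozyme they use. Pyruvate is then either reduced to lactate and exported or passed into mitochondria through pyruvate dehydrogenase, while the pentose phosphate pathway diverts glucose-6-phosphate to make NADPH and ribose.

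A gene was called where edgeR's quasi-likelihood test put it at a log2 fold change of 1 or more in either direction, with the p-value after Benjamini-Hochberg adjustment (adjusted p) no higher than 0.05. FR1 against hnCD16 called 11 of the 33 genes (33.3%), where 38.3% of all tested genes were called; 6 were higher (all tested genes 18.7%) and 5 lower (19.6%). For FR2 against hnCD16 the count was 13 (39.4%), beside 39.5% of all tested genes, with 7 higher (19.6%) and 6 lower (19.8%). FR1 against CTRL gave 14 (42.4%, all tested genes 38.0%), with 6 higher (18.3%) and 8 lower (19.8%). FR2 against CTRL gave 10 (30.3%, all tested genes 38.2%), with 4 higher (18.7%) and 6 lower (19.6%). These shares lie near those of all genes, so the number of calls does not set the glucose genes apart. The 4 comparisons share libraries and are given side by side.

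With no fold threshold, the adjusted p was passed by 32 of the 33 genes in FR1 against hnCD16, 18 higher and 14 lower, beside 79.1% of all tested genes (39.1% higher, 40.0% lower). In FR2 against hnCD16 it was passed by 31, 19 higher and 12 lower, beside 80.1% (38.7% and 41.4%). FR1 against CTRL gave 31, 19 higher and 12 lower, beside 79.9% (39.1% and 40.8%), and FR2 against CTRL 32, 20 higher and 12 lower, beside 80.2% (38.5% and 41.7%). Many of the 33 genes are abundant, so changes under the fold threshold can be measured in them. These counts, here and below, were not compared with genes of like abundance. The median log2 fold change of the 33 genes was 0.41, 0.21, 0.25 and 0.27 in the same order, beside -0.01, -0.03, -0.03 and -0.04 over all tested genes. By TPM, 14 of the 33 genes had all 6 FR1 and FR2 libraries above all 6 CTRL and hnCD16 libraries (26.4% of all tested genes did), 11 had them all below (37.5%), and 8 overlapped; 63.9% of all tested genes did not overlap. Against CTRL the scale matters: with library size alone in place of TMM factors, the median of all tested genes moved to -0.22 in FR1 and -0.17 in FR2, and -0.12 in hnCD16. Under that scaling FR1 against CTRL called 4 of the glucose genes higher and 8 lower. Of all 13657 tested genes it called 5304, 2141 of them higher. The median of the 33 genes was then 0.05 in FR1 and 0.14 in FR2. The adjusted p was passed by 16 higher and 13 lower in FR1 and by 16 and 12 in FR2. Of all tested genes 11076 passed it in FR1 and 11023 in FR2. With limma on log2(TPM + 1) these medians were 0.02 and 0.06, beside -0.165 and -0.174 over all tested genes. In FR1, 15 of the 33 genes were then higher and 14 lower past the adjusted p, which 11011 of all 13657 tested genes passed.

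**Figure D1:**
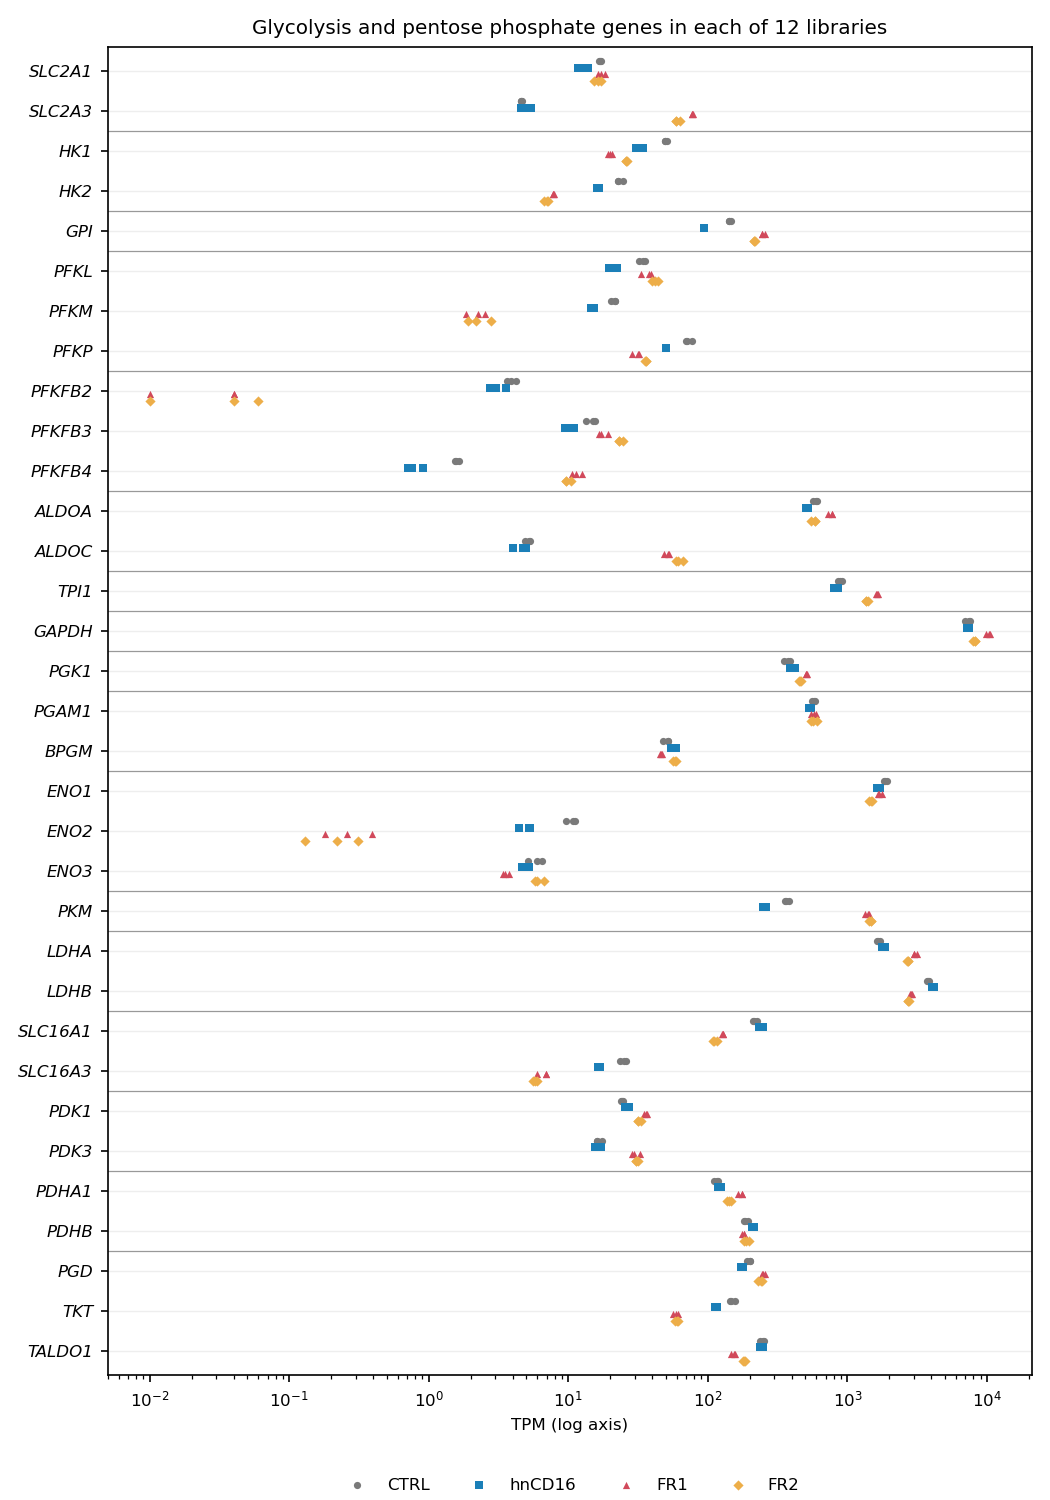
TPM of each of the 33 genes (rows, ordered along the pathway, with lines between steps) in each library, on a log axis, with CTRL as circles, hnCD16 as squares, FR1 as triangles and FR2 as diamonds. SLC2A3, PFKFB4, ALDOC and PKM lie to the right in all 6 FR1 and FR2 libraries, PFKM, PFKFB2 and ENO2 lie to the left, and PGAM1, BPGM and PDHB overlap between the 2 sides.

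Transcription factors that bind short DNA words act on many genes of this pathway: HIF-1 binds ACGTG or GCGTG, and MYC binds CACGTG, which contains ACGTG. The upstream windows of the RefSeq promoter table (GRCh38.p14, 250 bases before a transcript start) were searched on both strands, overlapping matches counting as 1 stretch. Of the 33 genes 30 had windows; SLC2A3, PFKFB2 and SLC16A1 did not match. The HIF-1 word was in 32 of their 57 windows (56.1%), against 43.2% of all 35116 windows, and CACGTG was in 7 of the 57, against 6.34% of all. The stretches below are shown for 3 genes called in each of the 4 comparisons whose window held the word outside any GENCODE v44 exon, 1 of them higher in FR1 and FR2 (ALDOC) and the other two lower (HK2, SLC16A3). Capitals mark ACGTG or GCGTG on either strand, and CACGTG where the words run together.
ALDOC (chr17:28576949-28577145, minus strand): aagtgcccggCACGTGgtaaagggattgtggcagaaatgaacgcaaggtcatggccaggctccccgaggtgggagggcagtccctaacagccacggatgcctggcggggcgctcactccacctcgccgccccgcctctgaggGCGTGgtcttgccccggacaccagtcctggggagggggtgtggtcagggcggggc
HK2 (chr2:74834920-74835169, plus strand): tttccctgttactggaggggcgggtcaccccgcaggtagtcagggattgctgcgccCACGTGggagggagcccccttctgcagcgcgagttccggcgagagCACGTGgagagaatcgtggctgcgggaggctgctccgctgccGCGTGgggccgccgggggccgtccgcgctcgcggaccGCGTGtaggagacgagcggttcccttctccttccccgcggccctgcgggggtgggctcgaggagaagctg
SLC16A3 (chr17:82228792-82229041, plus strand): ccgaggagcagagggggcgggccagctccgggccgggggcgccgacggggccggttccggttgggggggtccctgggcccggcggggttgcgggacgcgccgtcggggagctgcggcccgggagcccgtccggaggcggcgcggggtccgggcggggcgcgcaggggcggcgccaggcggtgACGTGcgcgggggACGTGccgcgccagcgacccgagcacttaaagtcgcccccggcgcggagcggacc
The printed ALDOC stretch was trimmed to the 197 bases that no exon covers and holds 2 matching stretches; its whole window holds 4. The printed HK2 window, 1 of 2, holds 4, and the other holds 3. The printed SLC16A3 window, 1 of 5, holds 2, and the others hold 0, 0, 3 and 1. Of the matched genes called in each of the 4 comparisons, 2 of 3 higher ones and 4 of 4 lower ones held the word in some window. The PKM window holds 0. Of the 15 matched genes called in 0 of the 4 comparisons, 11 held the word too. A match describes letters only and does not show that a factor binds there.

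SLC2A3 (NCBI Gene 6515), which encodes the high-affinity glucose transporter GLUT3, gave 4.66, 4.55 and 4.56 TPM in CTRL libraries, 4.99, 5.41 and 4.56 in hnCD16, 77, 77.7 and 76.4 in FR1 and 62.7, 59.2 and 59.6 in FR2. The 6 FR1 and FR2 libraries were each more than 10 times higher than any of the other 6. Its log2 fold changes (± SE, here and below) were 4.02 ± 0.068 in FR1 and 3.66 ± 0.068 in FR2 against hnCD16, and 4.29 ± 0.069 and 3.93 ± 0.069 against CTRL, with adjusted p values up to 2.18e-18. SLC2A3 shares near-identical sequence with SLC2A14, so part of its reads could belong to that copy. SLC2A1, the widely expressed transporter GLUT1, stood at 16.9 ± 0.237 TPM in CTRL libraries, 12.8 ± 1.01 in hnCD16, 17.3 ± 1.14 in FR1 and 16.2 ± 0.886 in FR2 (mean ± SD, n = 3, as for all TPM levels and shares below). Its FR1 and FR2 libraries overlapped those of CTRL, and its hnCD16 libraries lay below all others. Against hnCD16 it was higher by 0.50 ± 0.075 in FR1 and 0.40 ± 0.076 in FR2 on the log2 scale, under the fold threshold, and in FR2 against CTRL its difference of 0.15 ± 0.074 did not pass (adjusted p = 0.0767) and ran the other way by mean TPM. GLUT3 made up 21.3 ± 0.438% in CTRL libraries, 28.1 ± 1.68% in hnCD16, 81.7 ± 1.06% in FR1 and 78.8 ± 0.458% in FR2 of the summed TPM of both transporter genes.

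Both hexokinases, which trap glucose as glucose-6-phosphate, were lower in FR1 and FR2. HK1, the housekeeping form, gave 49.6, 49.5 and 51.2 TPM in CTRL libraries, 30.4, 34.1 and 32.5 in hnCD16, 19.1, 20.5 and 19.9 in FR1 and 26.4, 25.9 and 26 in FR2. The 4 groups did not overlap, and CTRL was the highest. HK1 was called in FR1 against CTRL alone (-1.12 ± 0.052, adjusted p = 9.46e-13), while FR2 against CTRL gave -0.73 ± 0.051 and the comparisons with hnCD16 -0.64 ± 0.052 and -0.25 ± 0.051. HK2, the inducible form that docks on mitochondria and whose upstream stretch is printed above, gave 22.7, 22.7 and 24.5 TPM in CTRL libraries, 16.2, 16.6 and 16.5 in hnCD16, 7.74, 7.79 and 7.88 in FR1 and 6.68, 7.09 and 7.14 in FR2. Here too all FR1 and FR2 libraries lay below the rest, with log2 fold changes of -1.01 ± 0.053 in FR1 and -1.19 ± 0.053 in FR2 against hnCD16, and -1.36 ± 0.052 and -1.54 ± 0.053 against CTRL (adjusted p up to 5.8e-12). The call of HK2 in FR1 against hnCD16 lies at the threshold and was lost in 6 alternatives at -1.0 to -0.99, among them leaving out hnCD16 replicate 1 or 2 or FR1 replicate 1 or 3. Together HK1 and HK2 summed to 73.4 ± 2.03 TPM in CTRL libraries, 48.8 ± 2.03 in hnCD16, 27.6 ± 0.708 in FR1 and 33.1 ± 0.0721 in FR2.

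GPI, which converts glucose-6-phosphate to fructose-6-phosphate, gave 141, 141 and 147 TPM in CTRL libraries, 93.6, 93.4 and 93.8 in hnCD16, 243, 246 and 256 in FR1 and 219, 215 and 214 in FR2. Its groups did not overlap, and hnCD16 was the lowest. It was called higher against hnCD16 (1.27 ± 0.045 in FR1 and 1.08 ± 0.045 in FR2) and differed by 0.91 ± 0.045 and 0.72 ± 0.045 against CTRL, under the fold threshold but past the adjusted p (up to 6.73e-11).

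Phosphofructokinase, the first committed step of glycolysis, is a tetramer of the muscle (PFKM), liver (PFKL) and platelet (PFKP) subunits. PFKM (NCBI Gene 5213) gave 20.3, 21.5 and 21.6 TPM in CTRL libraries, 14.6, 15.3 and 15.3 in hnCD16, 2.26, 1.84 and 2.55 in FR1 and 2.19, 2.79 and 1.9 in FR2. No FR1 or FR2 library reached 3 TPM, and no other library was below 14 TPM. The log2 fold changes were -2.64 ± 0.11 in FR1 and -2.61 ± 0.10 in FR2 against hnCD16, and -2.97 ± 0.10 and -2.95 ± 0.10 against CTRL, with adjusted p up to 1.22e-13. PFKL gave 32, 34.4 and 35.5 TPM in CTRL libraries, 20.9, 19.7 and 22.3 in hnCD16, 38.1, 33.4 and 39 in FR1 and 43.7, 42 and 40 in FR2. Its FR1 and CTRL libraries overlapped in TPM, and the only call was FR2 against hnCD16, at 1.05 ± 0.060 (adjusted p = 2.03e-11). PFKP gave 71.3, 76.6 and 70 TPM in CTRL libraries, 50.5, 50.2 and 50.4 in hnCD16, 31.6, 28.5 and 32.3 in FR1 and 36.1, 35.4 and 36.2 in FR2, with all FR1 and FR2 libraries below the rest. It was called lower only in FR1 against CTRL (-1.02 ± 0.060, adjusted p = 2.91e-11), a call that was lost without FR1 replicate 2 (-0.97).

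The make-up of the phosphofructokinase transcripts differed with these levels. PFKL took 26.6 ± 1.17% in CTRL libraries, 24.3 ± 1.1% in hnCD16, 52.7 ± 0.261% in FR1 and 52.3 ± 1.06% in FR2 of the summed TPM of the 3 subunits. PFKM took 16.6 ± 0.399% in CTRL libraries, 17.4 ± 0.482% in hnCD16, 3.16 ± 0.284% in FR1 and 2.86 ± 0.548% in FR2. PFKP took 56.8 ± 1.55% in CTRL libraries, 58.3 ± 0.933% in hnCD16, 44.1 ± 0.51% in FR1 and 44.9 ± 1.32% in FR2. The largest share thus belonged to PFKP in CTRL and hnCD16 and to PFKL in FR1 and FR2.

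PFKFB enzymes make and break fructose-2,6-bisphosphate, the strongest activator of phosphofructokinase. PFKFB4 (NCBI Gene 5210) gave 1.66, 1.58 and 1.55 TPM in CTRL libraries, 0.71, 0.91 and 0.76 in hnCD16, 10.6, 11.3 and 12.6 in FR1 and 10.5, 9.64 and 9.56 in FR2. It was at least 5 times higher in each FR1 and FR2 library than in any other, with log2 fold changes of 3.90 ± 0.11 in FR1 and 3.66 ± 0.11 in FR2 against hnCD16, and 3.06 ± 0.099 and 2.82 ± 0.10 against CTRL (adjusted p up to 2.13e-14). PFKFB2 (NCBI Gene 5208), the form abundant in heart, moved the other way, with 3.64, 3.86 and 4.2 TPM in CTRL libraries, 2.74, 3.03 and 3.59 in hnCD16, 0.01, 0.04 and 0.04 in FR1 and 0.06, 0.04 and 0.01 in FR2. It had 1 to 4 counts per FR1 library and 1 to 5 per FR2 library, so its ratio is imprecise: pooled counts were 70.2 times lower in FR1 than in hnCD16 (95% exact counting interval 35.4 to 163) and 63.6 times lower in FR2 (33.3 to 140.0). PFKFB3, the inducible form with the highest kinase over phosphatase activity, gave 13.4, 15.1 and 15.6 TPM in CTRL libraries, 10.9, 9.47 and 11.1 in hnCD16, 17.1, 16.6 and 19.4 in FR1 and 24.7, 23 and 23 in FR2, with all FR1 and FR2 libraries above the rest. It was called in FR2 against hnCD16 alone (1.27 ± 0.065, adjusted p = 3.55e-12). Of the TPM of the 3 genes, PFKFB4 held 7.95 ± 0.829% in CTRL libraries, 5.56 ± 1.06% in hnCD16, 39.4 ± 1.13% in FR1 and 29.5 ± 0.207% in FR2.

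**Figure D2:**
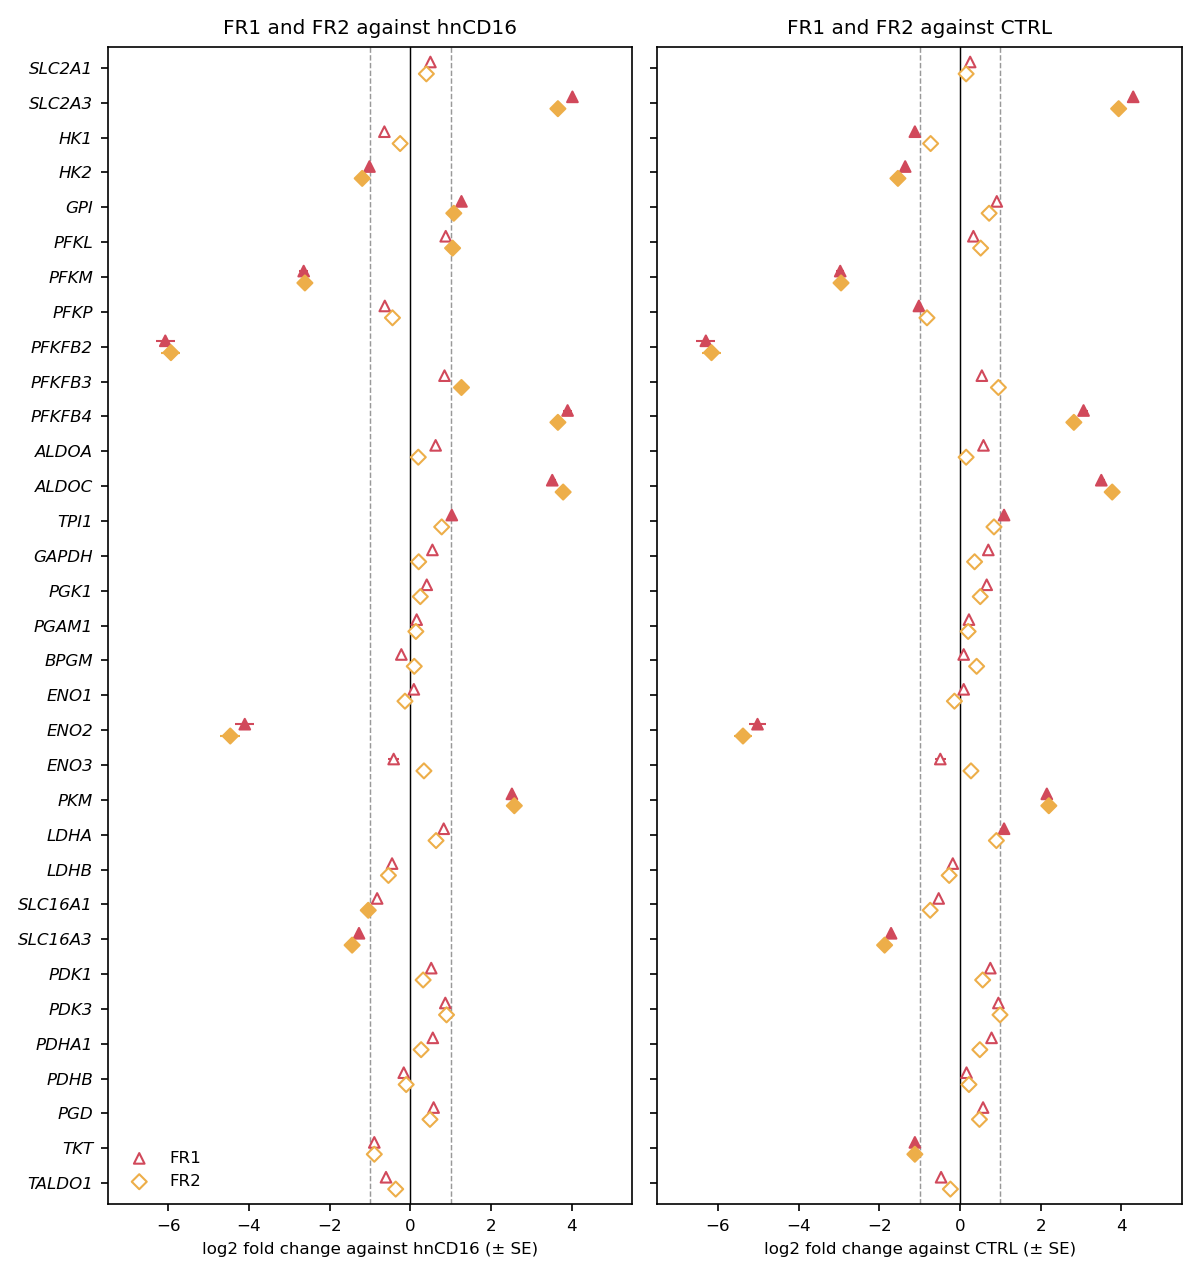
Log2 fold change ± SE of each of the 33 genes in FR1 (triangles) and FR2 (diamonds) against hnCD16 (left) and against CTRL (right), from edgeR with 3 libraries per group. Filled symbols are called genes and dashed lines mark log2 fold changes of -1 and 1; values run from -6.30 (PFKFB2, FR1 against CTRL) to 4.29 (SLC2A3, FR1 against CTRL).

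Aldolase, which cleaves fructose-1,6-bisphosphate, was mostly ALDOA. ALDOA gave 603, 598 and 567 TPM in CTRL libraries, 519, 515 and 503 in hnCD16, 774, 727 and 779.6 in FR1 and 583, 583 and 548 in FR2. Its FR1 libraries were the highest, and FR2 overlapped CTRL. It was higher in FR1 by 0.63 ± 0.058 against hnCD16 and 0.58 ± 0.058 against CTRL on the log2 scale, under the fold threshold; in FR2 against CTRL it stood at 0.15 ± 0.058, a sign that turned on the TPM scale (-0.05). ALDOC (NCBI Gene 230), the brain form whose upstream stretch is printed above, gave 4.92, 5.24 and 5.31 TPM in CTRL libraries, 4.7, 5.0 and 4.0 in hnCD16, 52, 48.5 and 52.9 in FR1 and 61.4, 66.2 and 58.9 in FR2. All FR1 and FR2 libraries exceeded the others more than 9 times. The log2 fold changes were 3.52 ± 0.087 in FR1 and 3.79 ± 0.086 in FR2 against hnCD16, and 3.50 ± 0.086 and 3.77 ± 0.085 against CTRL, with adjusted p up to 1.21e-16. The ALDOC share of aldolase TPM was 0.869 ± 0.0589% in CTRL libraries, 0.883 ± 0.087% in hnCD16, 6.3 ± 0.0498% in FR1 and 9.81 ± 0.343% in FR2.

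TPI1, GAPDH and PGK1 carry the middle of the pathway. TPI1, which interconverts the triose phosphates, gave 917, 884 and 853 TPM in CTRL libraries, 854, 839.5 and 799 in hnCD16, 1606, 1616 and 1647 in FR1 and 1365, 1409.8 and 1356 in FR2, with every FR1 and FR2 library above the rest. It was called higher in FR1 against hnCD16 (1.03 ± 0.060) and against CTRL (1.09 ± 0.061), and both calls fell under the fold threshold with library size alone, the first also without hnCD16 replicate 3. GAPDH, often used as a reference gene and the most abundant of the list, gave 7444, 7571 and 6977 TPM in CTRL libraries, 7343, 7477 and 7232 in hnCD16, 10388, 9794 and 10505 in FR1 and 8265, 8238 and 7945 in FR2. Its FR1 libraries were the highest and its FR2 libraries lay between them and the rest. The log2 fold changes of GAPDH were 0.55 ± 0.059 in FR1 and 0.21 ± 0.059 in FR2 against hnCD16, and 0.70 ± 0.060 and 0.36 ± 0.059 against CTRL, all past the adjusted p (up to 0.00412) and under the fold threshold. PGK1, which makes the first ATP of the pathway, gave 388, 376 and 350.5 TPM in CTRL libraries, 392, 424 and 388 in hnCD16, 503, 502 and 516 in FR1 and 467, 459 and 447 in FR2, again with FR1 and FR2 above the rest. PGK1 differed by 0.25 ± 0.062 (FR2 against hnCD16) to 0.66 ± 0.062 (FR1 against CTRL).

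PGAM1, the mutase that shifts the phosphate group of phosphoglycerate, gave 590.1, 577 and 560.4 TPM in CTRL libraries, 544, 548 and 527 in hnCD16, 578, 551 and 599 in FR1 and 601, 569.9 and 549 in FR2. FR1 and FR2 both overlapped CTRL, and hnCD16 had the lowest mean. Its differences of 0.14 ± 0.057 to 0.22 ± 0.057 passed the adjusted p in each of the 4 comparisons, but in FR2 against CTRL the sign turned on the TPM scale (-0.01). PGAM1 has a near-identical copy, PGAM4, and GAPDH, TPI1, PGK1, LDHA and LDHB have processed pseudogenes that can share reads with them. BPGM, which makes 2,3-bisphosphoglycerate, stood at 50.3 ± 2.48 TPM in CTRL libraries, 56.5 ± 2.8 in hnCD16, 46 ± 0.626 in FR1 and 57.9 ± 1.23 in FR2. It was lower in FR1 against hnCD16 (-0.22 ± 0.069) and higher in FR2 against CTRL (0.41 ± 0.068), and neither FR2 against hnCD16 nor FR1 against CTRL passed (adjusted p = 0.197 and 0.231).

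Enolase, which forms phosphoenolpyruvate, was almost all ENO1. ENO1 gave 1931, 1843 and 1820.0 TPM in CTRL libraries, 1705, 1708 and 1635 in hnCD16, 1697, 1661 and 1761 in FR1 and 1476, 1497 and 1432 in FR2. FR2 was the lowest group, and FR1 overlapped hnCD16. FR2 gave log2 fold changes of -0.13 ± 0.057 against hnCD16 and -0.14 ± 0.057 against CTRL, while FR1 gave 0.09 ± 0.057 and 0.09 ± 0.057, which did not pass (adjusted p = 0.154 and 0.153); by mean TPM FR1 was below CTRL. ENO2 (NCBI Gene 2026), the neuronal enolase, gave 9.67, 11.2 and 10.8 TPM in CTRL libraries, 5.35, 5.22 and 4.42 in hnCD16, 0.26, 0.39 and 0.18 in FR1 and 0.31, 0.13 and 0.22 in FR2. It was the lowest in FR1 and FR2, at 3 to 9 counts per library, and CTRL exceeded hnCD16 in every library. The log2 fold changes were -4.10 ± 0.23 in FR1 and -4.46 ± 0.24 in FR2 against hnCD16, and -5.02 ± 0.21 and -5.38 ± 0.22 against CTRL, with adjusted p up to 1.63e-11. ENO3, the muscle form, stood at 5.86 ± 0.683 TPM in CTRL libraries, 4.97 ± 0.319 in hnCD16, 3.57 ± 0.172 in FR1 and 6.13 ± 0.466 in FR2, and FR1 was lower than FR2 (log2 fold change -0.76 ± 0.13, adjusted p = 0.000228).

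PKM (NCBI Gene 5315), pyruvate kinase of non-liver tissue and the last ATP-making step, gave 361, 378 and 357 TPM in CTRL libraries, 259.5, 253 and 248 in hnCD16, 1416, 1341 and 1413 in FR1 and 1477, 1468 and 1426 in FR2. Every FR1 and FR2 library was more than 3 times above every other. The log2 fold changes were 2.52 ± 0.057 in FR1 and 2.58 ± 0.057 in FR2 against hnCD16, and 2.15 ± 0.056 and 2.20 ± 0.056 against CTRL, with adjusted p up to 2.32e-16. One gene makes the M1 and M2 forms by choice of an exon, M2 being the form of proliferating cells, and the transcript table splits them. The M2 transcript NM_002654 stood at 332 ± 11.8 TPM in CTRL libraries, 225 ± 10.2 in hnCD16, 1194 ± 52.7 in FR1 and 1266 ± 28 in FR2. The main M1 transcript NM_182471 stood at 27.5 ± 5.91 TPM in CTRL libraries, 20.5 ± 5.13 in hnCD16, 171 ± 8.18 in FR1 and 164 ± 2.75 in FR2. M1 transcripts were 8.11 ± 1.58% in CTRL libraries, 8.82 ± 1.97% in hnCD16, 12.7 ± 0.996% in FR1 and 11.7 ± 0.458% in FR2 of M1 and M2 together. Every FR1 and FR2 library had a higher M1 share than every other library, and M2 remained the main form in all 12. This split rests on how RSEM divides reads that fit both forms.

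LDHA and LDHB encode the subunits of lactate dehydrogenase, LDHA being the form that favours pyruvate reduction to lactate. LDHA gave 1717, 1659.8 and 1625 TPM in CTRL libraries, 1787, 1869 and 1760.3 in hnCD16, 3000.0, 3131 and 3024 in FR1 and 2701, 2698 and 2678 in FR2. All FR1 and FR2 libraries were above the rest, and LDHA was called in FR1 against CTRL (1.09 ± 0.057, adjusted p = 4.98e-12), a call that fell under the fold threshold on library size alone (0.90). LDHB gave 3851, 3776 and 3699 TPM in CTRL libraries, 4037, 4171 and 4087 in hnCD16, 2829.8, 2864 and 2911 in FR1 and 2701, 2701 and 2740.5 in FR2, with all FR1 and FR2 libraries below the rest. Its log2 fold changes ran from -0.54 ± 0.050 (FR2 against hnCD16) to -0.18 ± 0.050 (FR1 against CTRL). LDHB was 69.4 ± 0.181% in CTRL libraries, 69.4 ± 0.428% in hnCD16, 48.5 ± 0.64% in FR1 and 50.2 ± 0.324% in FR2 of the summed TPM. The sum itself was 5443 ± 122 TPM in CTRL libraries, 5904 ± 119 in hnCD16, 5919.9 ± 83.5 in FR1 and 5407 ± 10.8 in FR2. The sum overlapped between the 2 sides while the subunit share did not.

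Lactate leaves the cell through monocarboxylate transporters. SLC16A1, which encodes MCT1, gave 223, 213 and 209.7 TPM in CTRL libraries, 235, 247 and 232 in hnCD16, 127, 129 and 129 in FR1 and 115, 110.0 and 109 in FR2. All FR1 and FR2 libraries were below the rest, and the gene was called in FR2 against hnCD16 (-1.04 ± 0.056, adjusted p = 8.69e-12). SLC16A3, which encodes MCT4, the exporter of highly glycolytic cells, and whose upstream stretch is printed above, gave 23.6, 25.9 and 25 TPM in CTRL libraries, 16.7, 16.8 and 16.3 in hnCD16, 6.93, 5.98 and 6.88 in FR1 and 5.96, 5.75 and 5.57 in FR2. It too was lowest in FR1 and FR2, with log2 fold changes of -1.27 ± 0.077 in FR1 and -1.44 ± 0.078 in FR2 against hnCD16, and -1.71 ± 0.074 and -1.87 ± 0.075 against CTRL (adjusted p up to 4.45e-11). LDHA and both exporters thus differed in opposite directions.

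Pyruvate dehydrogenase kinases switch off pyruvate dehydrogenase, the gate to mitochondria. PDK1 gave 24.1, 23.9 and 24.5 TPM in CTRL libraries, 25.3, 26 and 27.4 in hnCD16, 36.2, 36.4 and 35.1 in FR1 and 33.2, 31.7 and 31.5 in FR2, and every FR1 and FR2 library was above the rest. PDK3 stood at 16.5 ± 0.88 TPM in CTRL libraries, 16.4 ± 0.773 in hnCD16, 30.4 ± 1.99 in FR1 and 30.7 ± 0.514 in FR2, likewise without overlap. Neither was called: PDK1 differed by 0.32 ± 0.053 to 0.75 ± 0.053, and PDK3 by 0.87 ± 0.052 to 0.99 ± 0.052, just under the fold threshold. The PDK3 share of both genes was 40.6 ± 1.49% in CTRL libraries, 38.5 ± 2.0% in hnCD16, 45.8 ± 1.35% in FR1 and 48.9 ± 0.296% in FR2. PDHB, the beta subunit of the dehydrogenase, gave 193, 185 and 181 TPM in CTRL libraries, 215, 209 and 207 in hnCD16, 180.2, 181 and 177 in FR1 and 197, 187 and 182 in FR2, with overlap between the 2 sides, and its difference in FR1 against CTRL (0.16 ± 0.058) turned sign with library size alone (-0.03). PDHA1, the catalytic alpha subunit, stood at 115 ± 4.23 TPM in CTRL libraries, 121 ± 3.68 in hnCD16, 172 ± 6.28 in FR1 and 142 ± 4.1 in FR2 and was higher by 0.27 ± 0.059 (FR2 against hnCD16) to 0.78 ± 0.059 (FR1 against CTRL).

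In the pentose phosphate pathway PGD, the second NADPH-making enzyme of the oxidative arm, gave 200.1, 200.2 and 190.5 TPM in CTRL libraries, 174, 179.8 and 175 in hnCD16, 246, 249 and 258 in FR1 and 239, 243 and 229 in FR2. Its FR1 and FR2 libraries were all above the rest, with log2 fold changes of 0.48 ± 0.053 (FR2 against CTRL) to 0.58 ± 0.053 (FR1 against hnCD16), under the fold threshold. TKT, the transketolase that links the pathway back to glycolysis, gave 146, 156 and 145 TPM in CTRL libraries, 115, 112 and 114 in hnCD16, 58.9, 56.3 and 60.8 in FR1 and 60, 61.1 and 58 in FR2. Here FR1 and FR2 lay below the rest, and TKT was called against CTRL (-1.12 ± 0.056 in FR1 and -1.12 ± 0.056 in FR2, adjusted p up to 3.13e-12), with -0.89 ± 0.057 and -0.89 ± 0.057 against hnCD16. TALDO1, the transaldolase of the same arm, stood at 246 ± 9.4 TPM in CTRL libraries, 242 ± 6.66 in hnCD16, 153 ± 5.16 in FR1 and 181 ± 3.04 in FR2, and its FR1 and FR2 libraries were also all below the rest. Among these genes PGD was thus higher and TKT and TALDO1 lower, which does not describe whole arms. Of 9 further pentose phosphate genes tested, FR1 against hnCD16 called 3 higher and 2 lower (55.6% called, all tested genes 38.3%). PGLS and RPIA, named after their values were seen, were lower in every FR1 and FR2 library. PGLS stood at 93.9 ± 8.55 TPM in CTRL libraries, 79.9 ± 3.76 in hnCD16, 25.3 ± 1.9 in FR1 and 33 ± 2.98 in FR2. TIGAR and RBKS of the same list, also named after their values were seen, were higher in every FR1 and FR2 library. TIGAR stood at 11.6 ± 0.419 TPM in CTRL libraries, 12.7 ± 0.408 in hnCD16, 28.8 ± 0.701 in FR1 and 24.6 ± 0.938 in FR2.

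**Figure D3:**
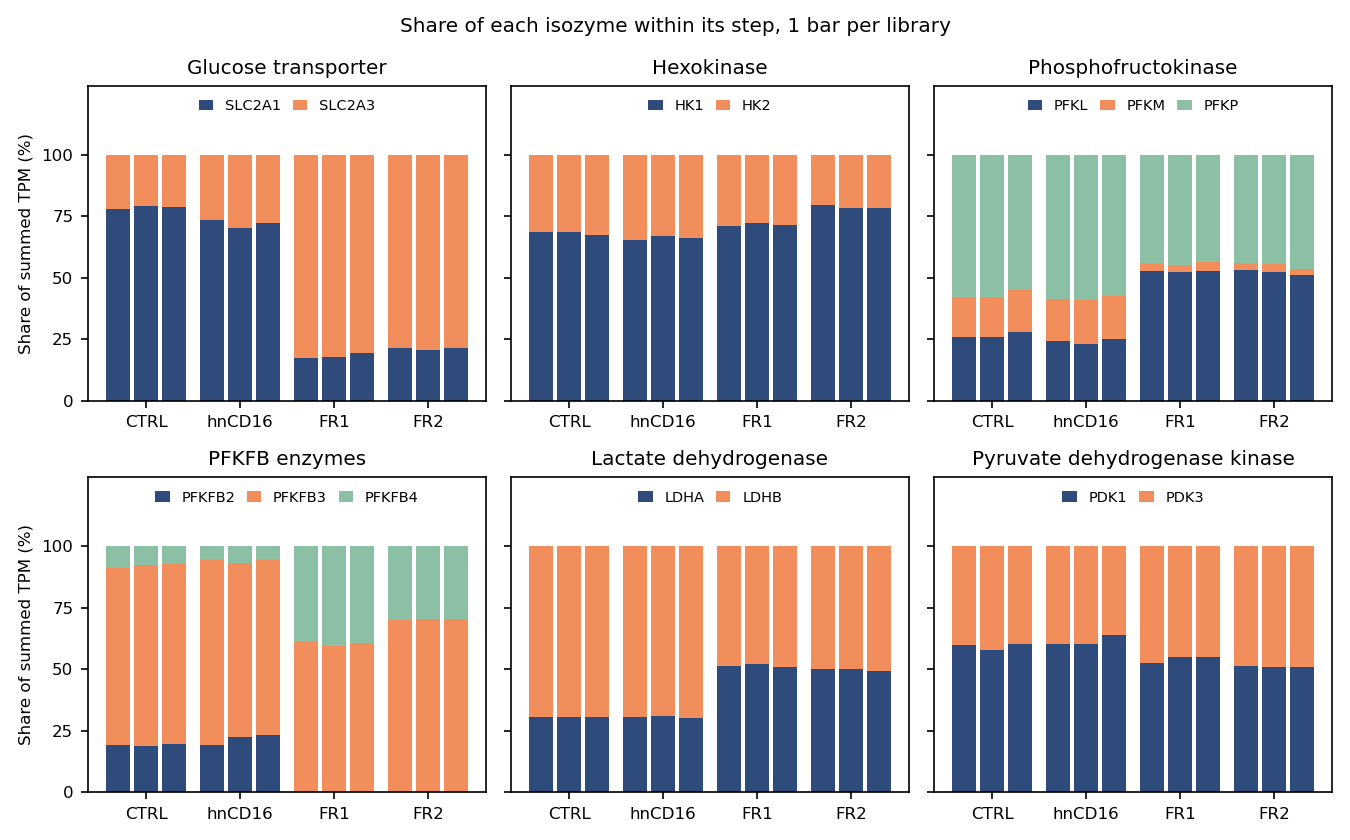
Share of each isozyme in the summed TPM of its step (%), 1 stacked bar per library and 3 libraries per group, for 6 steps. SLC2A3, PFKL, PFKFB4 and LDHA take a larger part in every FR1 and FR2 bar, and PFKM and PFKFB2 shrink to 3.48% and 0.170% or less.

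Shares within a step are given as a description, because 3 against 3 libraries cannot reach an exact permutation p below 0.1. An exact test that pooled FR1 with FR2 and CTRL with hnCD16 was also run, but it is not used, since 63.9% of all tested genes did not overlap on that split. Between the means of the pooled libraries, SLC2A3 was 55.6 percentage points higher in FR1 and FR2, PFKL 27.1 higher, ALDOC 7.18 higher and the M1 transcripts of PKM 3.73 higher, while the PFKM share fell by 14.0 and the LDHB share fell by 20.1. The shares of 1 step sum to the whole and are not independent of each other. The shares of PFKFB3 and ENO3 overlapped between the 2 sides. PFKFB3 held 72.7 ± 0.935% in CTRL libraries, 72.8 ± 2.8% in hnCD16, 60.5 ± 1.19% in FR1 and 70.4 ± 0.275% in FR2 of the PFKFB genes, a difference that turned from -7.32 to 3.13 percentage points when counts were not divided by transcript length. ENO3 held 0.312 ± 0.0452% in CTRL libraries, 0.294 ± 0.0208% in hnCD16, 0.208 ± 0.00382% in FR1 and 0.416 ± 0.0406% in FR2 of enolase. All 33 genes together made up 1.91 ± 0.0563% in CTRL libraries, 1.9 ± 0.0331% in hnCD16, 2.43 ± 0.0507% in FR1 and 2.1 ± 0.0325% in FR2 of all TPM. This sum weighs abundant genes most, GAPDH alone standing at 7331 ± 312 TPM in CTRL and 10229 ± 381 in FR1. It also holds the 11 genes with all FR1 and FR2 libraries below the rest.

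hnCD16 against CTRL called 0 of the 33 genes by edgeR, where 0.527% of all tested genes were called (0.212% higher, 0.315% lower); DESeq2 called 0, limma on log2(TPM + 0.1) called 1 (ENO2), and 24 genes had an unadjusted p of at most 0.05. The adjusted p alone was passed by 23 (10 higher, 13 lower), beside 43.0% of all tested genes (21.6% and 21.4%). With library size alone the split was 6 higher and 17 lower, beside 5657 of all 13657 tested genes. ENO2 (-0.92 ± 0.12), PFKFB4 (-0.83 ± 0.16), PFKL (-0.54 ± 0.061), HK1 (-0.48 ± 0.050) and SLC16A3 (-0.44 ± 0.065) were lower in hnCD16, and PDHB (0.33 ± 0.058) and BPGM (0.31 ± 0.068) were higher. ENO2 had the largest of these differences, adjusted p = 3.88e-05.

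FR1 against FR2, which differ by the 2B4 domain, also called 0 of the 33 genes by edgeR, where 1.93% of all tested genes were called (0.439% higher, 1.49% lower). DESeq2 and limma called 0 too, and 21 genes had an unadjusted p of at most 0.05. The adjusted p alone was passed by 20 (12 higher, 8 lower in FR1), beside 36.2% of all tested genes (17.7% and 18.5%). With library size alone the split was 9 higher and 10 lower, beside 5138 of all 13657 tested genes. In FR1, ALDOA was higher by 0.43 ± 0.058 (adjusted p = 2.62e-05), SLC2A3 by 0.36 ± 0.054, GAPDH by 0.34 ± 0.059 and PDHA1 by 0.29 ± 0.058. ENO3 (-0.76 ± 0.13), PFKFB3 (-0.41 ± 0.061), HK1 (-0.39 ± 0.053), BPGM (-0.32 ± 0.069) and ALDOC (-0.27 ± 0.063) were lower in FR1. PKM (-0.06 ± 0.053) and PFKM (-0.03 ± 0.14) did not pass.

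A further 57 genes of the pathway, isozymes and side branches not among the 33, were listed beside them; 56 were in the table and 39 were tested. Of the 39, FR1 against hnCD16 called 15 (38.5%, all tested genes 38.3%), with 9 higher and 6 lower, and FR2 against hnCD16 called 16 (41.0%, all tested genes 39.5%), with 10 higher and 6 lower. FR1 and FR2 against CTRL called 14 each (35.9%, all tested genes 38.0% and 38.2%), with 9 higher and 5 lower. These shares too lie near those of all genes. TKTL1, a transketolase-like protein, gave 0.08, 0.08 and 0.04 TPM in CTRL libraries, 0.15, 0.12 and 0.28 in hnCD16, 296, 280.1 and 296 in FR1 and 151, 146 and 150.2 in FR2. It was at 3 counts or fewer in each CTRL library and at least 2755 times higher in FR1 and 1404 times in FR2, taking 3 counts per library as the floor, while FR1 exceeded FR2 in every library. TKTL1 and TKT thus differed in opposite directions.

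SLC2A8, an intracellular glucose transporter (GLUT8), had 3 counts or fewer in each CTRL and hnCD16 library and 29.8 ± 2.93 TPM in FR1 and 36 ± 2.3 TPM in FR2, at least 174 times higher in FR1 and 205 times in FR2 than in hnCD16. SLC2A6 (GLUT6) ran the other way, at 9.96 ± 0.43 TPM in CTRL libraries, 8.21 ± 0.188 in hnCD16, 0.62 ± 0.151 in FR1 and 0.61 ± 0.135 in FR2. EMB, the embigin chaperone of lactate transporters, stood at 138 ± 12.2 TPM in CTRL libraries, 156 ± 12.4 in hnCD16, 33.3 ± 0.81 in FR1 and 38.8 ± 1.45 in FR2, lower in FR1 and FR2 (log2 fold changes -2.15 ± 0.051 to -1.62 ± 0.050), as SLC16A1 and SLC16A3 were. SLC16A7, which encodes the transporter MCT2 and was named after its values were seen, ran the other way, at 5.8 ± 1.29 TPM in CTRL libraries, 6.38 ± 1.36 in hnCD16, 14.8 ± 0.891 in FR1 and 15.2 ± 0.644 in FR2 (log2 fold changes 1.28 ± 0.11 to 1.60 ± 0.11). BSG (basigin), listed with EMB and also named after its values were seen, overlapped between FR1 or FR2 and the rest. It stood at 207 ± 7.61 TPM in CTRL libraries, 156 ± 4.17 in hnCD16, 144 ± 6.42 in FR1 and 175 ± 6.25 in FR2. PYGL, which releases glucose units from glycogen, fell from 1.86 ± 0.152 TPM in hnCD16 to 3 counts or fewer in each FR1 and FR2 library.

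Of 16 regulators of glycolytic genes 13 were tested, and each of the 4 comparisons called 4 higher and 4 lower (61.5%, all tested genes 38.0% to 39.5%, with 18.3% to 19.8% in each direction). ARNT, the partner of the HIF alpha subunits, gave 10.4, 11.2 and 11.6 TPM in CTRL libraries, 8.23, 9.28 and 9.57 in hnCD16, 49.8, 51.8 and 53.2 in FR1 and 54.5, 51 and 52.1 in FR2. It was higher by 2.42 ± 0.049 to 2.60 ± 0.050. HIF1A, named after its values were seen, stood at 61.4 ± 10.4 TPM in CTRL libraries, 66 ± 9.56 in hnCD16, 173 ± 4.04 in FR1 and 153 ± 9.99 in FR2 and was called higher too (1.28 ± 0.083 to 1.72 ± 0.084). EGLN1, a HIF prolyl hydroxylase also named after its values were seen, was higher as well. It stood at 22.8 ± 1.68 TPM in CTRL libraries, 20.7 ± 0.589 in hnCD16, 61.9 ± 1.65 in FR1 and 70.9 ± 3.38 in FR2, while EGLN2 overlapped. MYC, an activator of many glycolytic genes, gave 136, 139 and 136 TPM in CTRL libraries, 101, 101 and 98.3 in hnCD16, 20.6, 20.1 and 19.8 in FR1 and 23.8, 21.4 and 21.3 in FR2, all FR1 and FR2 libraries being below the rest. TXNIP, which curbs glucose uptake and is itself induced by glucose, stood at 84.1 ± 1.87 TPM in CTRL libraries, 73.6 ± 2.16 in hnCD16, 15.2 ± 0.444 in FR1 and 28.3 ± 1.17 in FR2. MLXIP and ARRDC4, also named after their values were seen, were lower in FR1 and FR2. MLXIP stood at 23.4 ± 1.45 TPM in CTRL libraries, 18.2 ± 1.57 in hnCD16, 7.54 ± 0.46 in FR1 and 8.36 ± 0.495 in FR2. ARRDC4 had 3 counts or fewer in each FR1 and FR2 library, at least 21.6 times lower in FR1 and 22.0 in FR2 than in CTRL. ESRRA, an orphan nuclear receptor of energy metabolism, stood at 21.7 ± 0.839 TPM in CTRL libraries, 17.4 ± 0.636 in hnCD16, 59.9 ± 2.55 in FR1 and 70.6 ± 1.88 in FR2. The log2 fold changes of MYC ran from -2.56 ± 0.057 to -2.12 ± 0.057, those of TXNIP from -2.25 ± 0.056 to -1.32 ± 0.053, and those of ESRRA from 1.67 ± 0.054 to 2.04 ± 0.054.

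Of 14 hypoxia-responsive genes outside glycolysis 11 were tested, and they split. BHLHE40, a transcriptional repressor, stood at 0.687 ± 0.10 TPM in CTRL libraries, 0.63 ± 0.182 in hnCD16, 88.8 ± 5.02 in FR1 and 86.8 ± 1.16 in FR2. VEGFA, the angiogenic factor, stood at 0.233 ± 0.0651 TPM in CTRL libraries, 0.127 ± 0.0321 in hnCD16, 5.8 ± 0.616 in FR1 and 5.58 ± 0.252 in FR2. DDIT4, an inhibitor of mTOR signalling, stood at 21.9 ± 0.928 TPM in CTRL libraries, 13.6 ± 1.36 in hnCD16, 90.7 ± 2.43 in FR1 and 135 ± 0.958 in FR2. All of these were higher in FR1 and FR2. BNIP3, a mitophagy receptor, stood at 16.7 ± 0.93 TPM in CTRL libraries, 13 ± 0.924 in hnCD16, 0.33 ± 0.13 in FR1 and 0.193 ± 0.0651 in FR2. NDRG1 had 4.75 ± 0.72 TPM in CTRL, 3.39 ± 0.401 in hnCD16 and 3 counts or fewer in each FR1 and FR2 library. FR1 and FR2 against hnCD16 and FR1 against CTRL each called 4 higher and 2 lower (54.5%), and FR2 against CTRL 4 higher and 3 lower (63.6%), beside the same 38.0% to 39.5% of all tested genes. FR1 against FR2 called 1 (9.09%, all tested genes 1.93%), NDRG1, which rests on 0 to 3 counts per library and was lost in 8 alternatives.

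**Figure D4:**
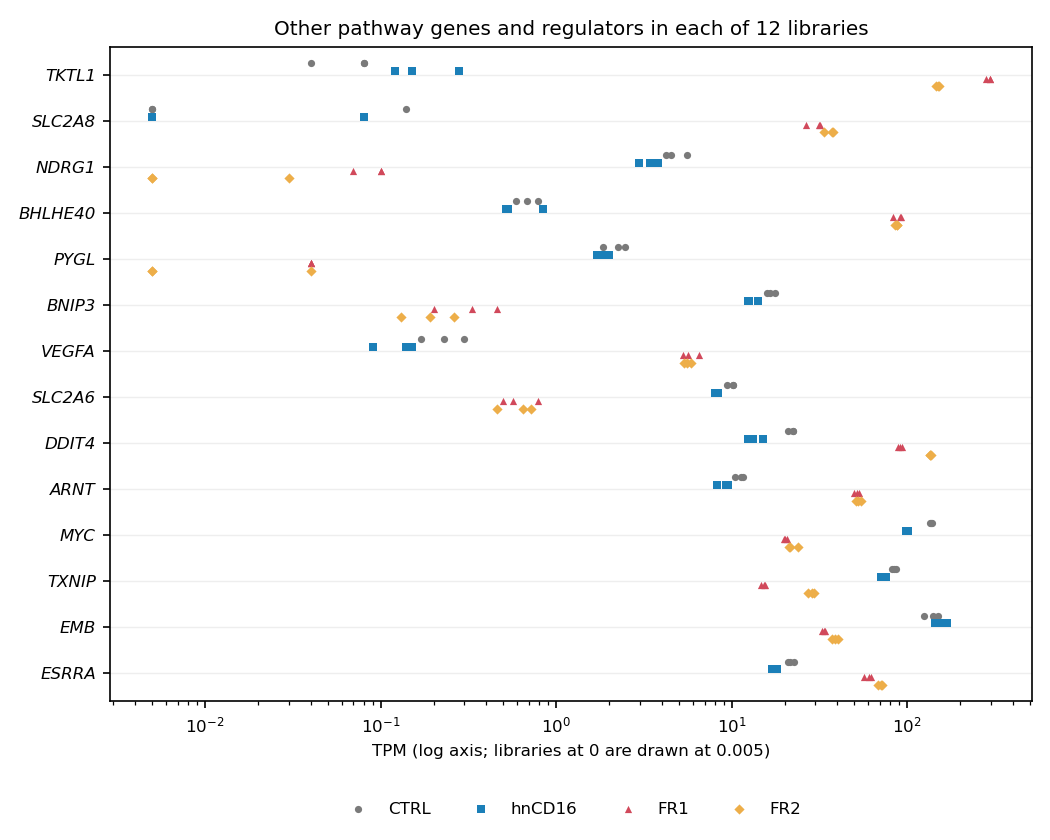
TPM of 14 further pathway genes, regulators and hypoxia-responsive genes (rows) in each library on a log axis, with CTRL as circles, hnCD16 as squares, FR1 as triangles and FR2 as diamonds. TKTL1, SLC2A8, BHLHE40, VEGFA, DDIT4, ARNT and ESRRA lie to the right in all 6 FR1 and FR2 libraries, and the other 7 genes lie to the left.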

How the data were processed

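RNA-seq of YT cells was analysed for 4 groups with 3 libraries each. The authors cleaned the reads (SOAPnuke), aligned them with HISAT2 2.1.0 to the GRCh38.p13 build and used RSEM 1.3.1 for quantification; the submitters' notes also name Bowtie2 2.3.4.3. The deposited expected counts are RSEM estimates per gene and transcript without normalization, and the deposited TPM values were made by the authors from the same reads. The sources used here do not state whether counting used strand. Each table, of genes or of transcripts, has 40 further value columns that were not used; they hold FPKM values, normalized counts and group averages.

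Counts were rounded, filtered by filterByExpr and tested with edgeR 4.0.16 (R 4.3.3), TMM factors, 1 fit of all groups without covariates, Benjamini-Hochberg within each of 6 comparisons. The test was checked on simulated data. The 33 genes and all other lists were chosen with earlier results of these data known. All 33 are named; values per library are given for genes called anywhere or highest at their step, and of other pathway genes and regulators the 15 with the largest fold change among those called with a mean of at least 1 TPM, 1 of which is not reported here. As alternatives, the same comparisons were run with DESeq2 1.42.0, limma 3.58.1, other scalings and filters, 2-group fits, a replicate block and leaving out each library. Counting intervals cover counting error only.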

Additional observations from a re-analysis of the deposited data

How the results depend on the processing

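Of 48 calls of a glucose gene in a comparison, all but 7 held under every alternative in which the gene was tested. These 7 lie near the fold threshold and kept their direction: HK2 in FR1 against hnCD16, TPI1 in FR1 against hnCD16 and CTRL, LDHA and PFKP in FR1 against CTRL, and PFKL and SLC16A1 in FR2 against hnCD16. PDK3 in FR2 against CTRL crossed the threshold in 5 alternatives, at 1.0 to 1.02. The number of called genes in hnCD16 against CTRL rose from 0 to 1 (ENO2) with library size alone and with limma on log2(TPM + 0.1). Leaving out 1 library gave 10 to 11 called genes in FR1 against hnCD16, 13 in FR2 against hnCD16, 13 to 14 in FR1 against CTRL and 10 to 11 in FR2 against CTRL.

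The sign turned for PDHB in FR1 against CTRL, to -0.03 with library size alone and -0.05 with limma at either pseudocount, for ALDOA in FR2 against CTRL, to -0.05 with limma, and for PGAM1 in FR2 against CTRL, to -0.01 with limma, and the PFKFB3 share difference moved to 3.13 percentage points without division by length. ENO1 in FR1 against CTRL and SLC2A1 in FR2 against CTRL, which did not pass, also ran the other way by mean TPM. The cause was not tested. Same-numbered replicates deviated together weakly or not at all (correlations from -0.06 to 0.13). In hnCD16 against CTRL each correlation was positive, with a mean of 0.109. The mean for libraries of unlike number, -0.0544, is tied to it because deviations were taken from group means, and adds no separate evidence. Whether the replicate numbers pair samples is therefore not settled. In a fit with replicate as a block, counts of called genes were 11, 13, 14, 10, 0 and 0 in the order FR1 and FR2 against hnCD16, FR1 and FR2 against CTRL, hnCD16 against CTRL and FR1 against FR2. With at least 10 counts in every library, 31 of the 33 genes were tested. Depth limits PFKFB2 and ENO2, which had 1 to 9 counts in FR1 and FR2 libraries.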
